A study of Mus musculus with 8 samples.

Results

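The inflammasome genes Nlrp3, Mefv, Nlrc4, Aim2, P2rx7, Nek7, Pycard, Casp1, Casp4 and Gsdmd are 10 of the 24011 genes measured on 8 Affymetrix arrays of mouse macrophages. Each was taken as the row whose probe set number is the Entrez gene number of the gene, and each had 1 probe set. Hepcidin samples (n = 4) were wild-type bone marrow-derived macrophages given hepcidin at 10 µg/ml for 1 h, and PBS samples (n = 4) were the same kind of macrophages given PBS. All were primary cells of mice aged 8 to 10 weeks, grown for 7 days with L cell-conditioned medium as the source of M-CSF, the cytokine that turns marrow precursors into macrophages. The labels state neither strain nor sex, nor whether the numbers 1 to 4 in the sample titles stand for animals or cultures. The p-values therefore cover the spread among these 8 samples, which could be technical.

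Hepcidin is a hormone made mainly by the liver that blocks iron export by binding ferroportin. Inflammasomes are protein platforms of the macrophage cytosol. A sensor detects a microbial product or a disturbance of the cell, recruits the adaptor ASC, and activates caspase-1, which matures interleukin-1β and interleukin-18 and cuts gasdermin D into a pore-forming fragment that kills the cell by pyroptosis. The platform is assembled from proteins, and a separate earlier step, called priming, raises the mRNA of the sensor NLRP3 and of interleukin-1β through NF-kB. The arrays bear on mRNA only, and not on assembly, cleavage or cytokine release.

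The values are log2 values made by the authors with RMA. Array medians of all genes lay between 4.87 and 4.95, and the arrays correlated at 0.989 to 0.996 with each other across genes. The 8 measured macrophage markers had mean log2 levels between 8.34 (Mertk) and 13.1 (Cd68), which fits the label of the cells. As a measure of background, 20 B, T and NK cell markers had a median log2 level of 3.99, and 16 of them lay under 6 (the others were Ighm, Cd22, Cd28 and Il7r). Of the 10 inflammasome genes, 9 had a mean level of 6 or more, and 1, Mefv, lay near the background median. Levels of different probe sets are not compared here, since probes differ in how strongly they bind.

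Hepcidin arrays were set against PBS arrays to ask which macrophage transcripts differ at 1 h. Arrays that share a number are called a pair. Nlrp3, Mefv and Casp4 were higher with hepcidin in 4 of 4 pairs, by 1.26-fold, 1.21-fold and 1.18-fold on average. Nlrc4 and Gsdmd were higher in 3 of 4 pairs, at 1.11-fold and 1.08-fold. The other 5 genes, Pycard, Casp1, Aim2, Nek7 and P2rx7, lay between 0.927-fold and 1.02-fold with pairs in both directions. In limma, 0 of the 10 reached an adjusted p under 0.05 across the whole table, with or without the array number as a block. At an unadjusted p under 0.05 there was 1 gene of the 10, Nlrp3, without the block and 3, Nlrp3, Mefv and Casp4, with it. Over all genes, 0% passed the adjusted threshold without the block and 0.00416% with it. The shares at an unadjusted p under 0.05 in either direction were 2.86% without the block and 4.91% with it. Being higher in 4 of 4 pairs held for 5.69% of all genes.

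**Figure D1:**
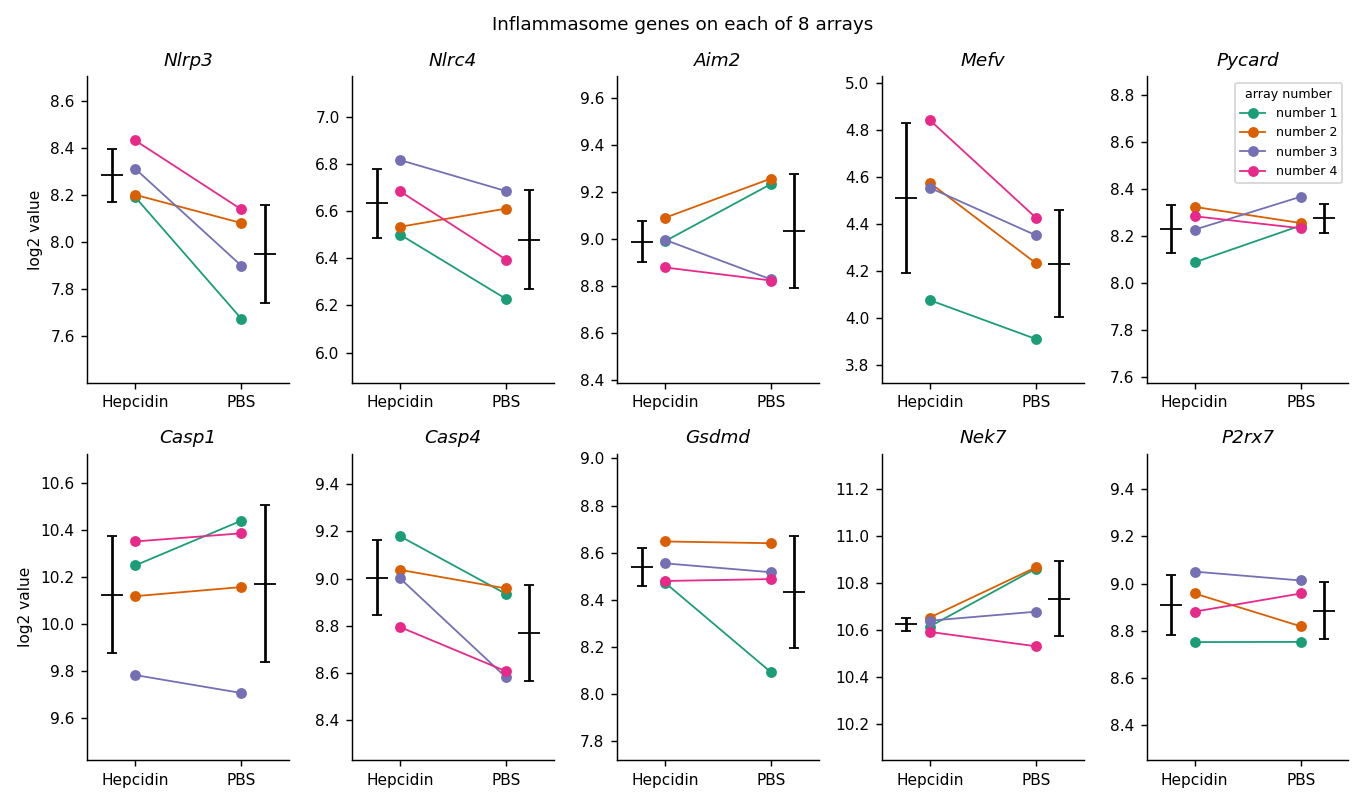
Log2 value (vertical axis, the same span of 1.3 in every panel) of each inflammasome gene on the 4 hepcidin and 4 PBS arrays. Lines join arrays with the same number, and black bars show the group mean ± SD (n = 4). Nlrp3 is the gene whose groups do not overlap. Every gene has number means that range more widely than its log2 change, Casp1 most of all relative to that change.

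Nlrp3 (Entrez gene 216799, chromosome 11) encodes the sensor that responds to potassium loss and many other disturbances, and whose mRNA is a classical priming target of NF-kB. It had log2 values of 8.19, 8.20, 8.31 and 8.43 on hepcidin arrays 1 to 4, against 7.68, 8.08, 7.90 and 8.14 on PBS arrays 1 to 4. Every hepcidin array lay above every PBS array, the nearest being hepcidin 1 at 8.19 and PBS 4 at 8.14. Groups parted in this upward way in 0.845% of all genes. The means were 8.28 ± 0.11 with hepcidin and 7.95 ± 0.21 with PBS (SD, n = 4 each). The log2 change was 0.34 ± 0.11 (SE), with a 95% confidence interval from 0.08 to 0.59 and an unadjusted p of 0.0144 in limma. The adjusted p over all genes was 1.00 without the block and 0.784 with it. In the 4 pairs the log2 difference was 0.52, 0.12, 0.41 and 0.29. By unadjusted p, Nlrp3 ranked 170th of 24011 genes without the block and 140th with it. Its change was 0.27 without both arrays numbered 1, whose PBS member had the lowest Nlrp3 value, and the direction was kept under 26 of 26 alternative settings. Because its groups do not overlap, leaving arrays out could not reverse the direction, and the blocks leave the estimate unchanged. The count is therefore no separate evidence.

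The promoter of Nlrp3 is shown because NF-kB is its known regulator. The RefSeq table lists 2 starts for the gene, and the sequence gives the 250 bases before the upstream start, at chr11:59541319-59541568 of GRCm38.p6, plus strand, 5′ to 3′. Capitals mark the match to the NF-kB consensus, which reads as a match on both strands and lies 186 to 177 bases before the start.
Nlrp3 promoter: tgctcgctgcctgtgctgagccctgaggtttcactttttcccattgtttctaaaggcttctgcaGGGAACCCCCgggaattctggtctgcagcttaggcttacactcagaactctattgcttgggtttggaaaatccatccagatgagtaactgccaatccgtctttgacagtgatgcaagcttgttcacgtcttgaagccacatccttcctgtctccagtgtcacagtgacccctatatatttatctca
The same window before the downstream start held no match. A match describes letters in this window and is not evidence of a bound site. Of 32851 promoter windows of this length in the table, 7.25% held the NF-kB consensus on either strand.

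Mefv (54483, chromosome 16) encodes pyrin, the sensor that is mutated in familial Mediterranean fever. Its log2 values were 4.08, 4.58, 4.55 and 4.84 on hepcidin arrays 1 to 4, against 3.91, 4.23, 4.35 and 4.43 on PBS arrays 1 to 4. The groups overlapped, since hepcidin 1 lay below 3 of the PBS arrays, but each hepcidin array lay above the PBS array of its own number. The means were 4.51 ± 0.32 with hepcidin and 4.23 ± 0.23 with PBS (SD, n = 4 each). The log2 change of 0.28 had an SE of 0.17 without the block and 0.08 with it. In limma the unadjusted p was 0.121 without and 0.00681 with the block, and the adjusted p was 1.00 and 0.789. These levels are near the median of the lymphocyte markers, where ratios on arrays are compressed, and how much of the signal is Mefv mRNA was not tested. The 24 settings in which Mefv remained in the table kept the direction. With every pair higher, leaving out both arrays of a number could not reverse it.

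The 250 bases before the single listed start of Mefv, on the minus strand of chr16:3718125-3718374 (GRCm38.p6), are shown for comparison with Nlrp3. They held no match to the NF-kB consensus, so no base is in capitals.
Mefv promoter: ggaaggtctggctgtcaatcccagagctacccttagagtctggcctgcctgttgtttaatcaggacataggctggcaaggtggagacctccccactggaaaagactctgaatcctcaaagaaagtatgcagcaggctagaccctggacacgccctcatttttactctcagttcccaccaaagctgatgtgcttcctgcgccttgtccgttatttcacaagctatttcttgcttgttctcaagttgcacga

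Nlrc4 (268973, chromosome 17) encodes the partner of the NAIP proteins, which recognise bacterial flagellin and secretion needles. It stood at 6.50, 6.53, 6.82 and 6.68 on hepcidin arrays 1 to 4, against 6.23, 6.61, 6.69 and 6.39 on PBS arrays 1 to 4. The hepcidin value was the higher one in pairs 1, 3 and 4 and the lower one in pair 2, and the groups overlapped. On average the difference was 0.15 ± 0.12 (log2, SE), and limma's 95% interval ran from -0.11 to 0.42, or from -0.04 to 0.35 with the block.

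Aim2 (383619, chromosome 1) encodes a sensor of double-stranded DNA in the cytosol. Its values were 8.99, 9.09, 8.996 and 8.88 on hepcidin arrays 1 to 4, against 9.23, 9.26, 8.83 and 8.82 on PBS arrays 1 to 4. Hepcidin was lower in pairs 1 and 2 and higher in pairs 3 and 4. This gave a mean log2 change of -0.05 ± 0.12 (SE), with an interval from -0.31 to 0.22. It was 0.02 without both arrays numbered 1.

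Of the inputs to NLRP3, P2rx7 (18439, chromosome 5) encodes the ATP-gated channel whose opening lets potassium leave the cell. It stood at 8.75, 8.96, 9.05 and 8.88 on hepcidin arrays 1 to 4, against 8.75, 8.82, 9.01 and 8.96 on PBS arrays 1 to 4. The arrays of pair 1 had the same value to 2 decimals, and the groups covered nearly the same range. Its log2 change of 0.02 ± 0.09 (SE) was the closest to 0 of the 10, and the interval with the block ran from -0.14 to 0.19.

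Nek7 (59125, chromosome 1) encodes the kinase that binds NLRP3 and is needed for its assembly. It stood at 10.62, 10.65, 10.64 and 10.59 on hepcidin arrays 1 to 4, against 10.86, 10.87, 10.68 and 10.53 on PBS arrays 1 to 4. The hepcidin arrays lay close together, with an SD of 0.03 against 0.16 in the PBS arrays, and inside the range of the PBS arrays. The log2 change was -0.11 ± 0.09 (SE), the most negative of the 10 genes, with hepcidin lower in pairs 1 to 3, an interval from -0.31 to 0.09 and an adjusted p of 1.00 in limma. It stayed below 0 under 26 of 26 alternative settings.

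Pycard (66824, chromosome 7) encodes ASC, the adaptor that links sensors to caspase-1 and forms the speck seen in activated cells. It stood at 8.09, 8.32, 8.23 and 8.28 on hepcidin arrays 1 to 4, against 8.24, 8.26, 8.37 and 8.23 on PBS arrays 1 to 4. Hepcidin 1 was the lowest and PBS 3 the highest of the 8 values. Hepcidin minus PBS came to -0.04 ± 0.08 (SE), with an interval from -0.22 to 0.14. Pycard varied least between array numbers among the 10 genes.

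Casp1 (12362) and Casp4 (12363) are neighbours on chromosome 9 in the RefSeq table, and Casp12 is next to Casp4. Casp1 encodes caspase-1, the enzyme of the canonical inflammasome. It stood at 10.25, 10.12, 9.78 and 10.35 on hepcidin arrays 1 to 4, against 10.44, 10.16, 9.71 and 10.39 on PBS arrays 1 to 4. Both arrays numbered 3 were low and the members of each pair lay close together. The log2 change was -0.05, with an SE of 0.17 without the block and 0.08 with it. The interval was -0.43 to 0.34 without the block and -0.22 to 0.13 with it, so a change of the average size seen in Nlrp3 lay outside the second interval. Leaving out both arrays numbered 1 brought the change to 0.00.

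Casp4 encodes the mouse enzyme also called caspase-11, which binds bacterial lipopolysaccharide in the cytosol and starts the non-canonical inflammasome. It stood at 9.18, 9.04, 9.001 and 8.79 on hepcidin arrays 1 to 4, against 8.93, 8.96, 8.58 and 8.61 on PBS arrays 1 to 4. The groups overlapped through hepcidin 4, which lay below PBS 1 and PBS 2, while each pair had the higher value with hepcidin. The means were 9.003 ± 0.16 with hepcidin and 8.77 ± 0.20 with PBS (SD, n = 4 each). The log2 differences in pairs 1 to 4 were 0.25, 0.08, 0.42 and 0.19. The log2 change was 0.23 ± 0.12 (SE), with an unadjusted p of 0.0811 without and 0.0211 with the block in limma, and adjusted p-values of 1.00 and 0.966. The direction was kept under 26 of 26 alternative settings, though with every pair higher, leaving out both arrays of a number could not reverse it.

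The promoter of Casp4 is shown because, after all listed promoters of the 10 genes had been searched, it and that of Nlrp3 were those with the NF-kB consensus. It was chosen after the matches were seen. The sequence gives the 250 bases before the upstream of 2 listed starts, at chr9:5308599-5308848 of GRCm38.p6, plus strand, with matches on either strand in capitals.
Casp4 promoter: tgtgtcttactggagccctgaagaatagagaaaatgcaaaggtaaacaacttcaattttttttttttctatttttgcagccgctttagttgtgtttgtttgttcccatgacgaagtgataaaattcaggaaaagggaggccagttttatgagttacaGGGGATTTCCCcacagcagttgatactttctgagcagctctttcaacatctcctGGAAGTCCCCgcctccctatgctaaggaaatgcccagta
The first run of capitals, 93 to 83 bases before the start, holds overlapping matches, and the second, 39 to 30 bases before it, is a match on the opposite strand. Of the 9 genes with a promoter in the RefSeq table (12 starts in all; Gsdmd is not among them), 2 held the consensus. Of all promoter windows 7.25% held it, a share counted per window and not per gene, so the 2 are not directly comparable. The windows of the 2 Casp4 starts overlap and hold the same matches. The interferon response motif, searched on both strands as 2 copies of GAAA with 2 bases between, was in 0 of the 9 and in 2.98% of all promoter windows, and TATAAA was in 0 of the 9 and in 12.4% of all.

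Gsdmd (69146, chromosome 15) encodes gasdermin D, the substrate of both caspases and the pore-forming executor of pyroptosis. It stood at 8.47, 8.65, 8.55 and 8.48 on hepcidin arrays 1 to 4, against 8.09, 8.64, 8.52 and 8.49 on PBS arrays 1 to 4. Outside pair 1 the values of a pair lay within 0.04 of each other, and PBS 1 was the lowest of the 8. Hepcidin minus PBS came to 0.10 ± 0.12 (log2, SE), with an interval from -0.16 to 0.37, and -0.01 without PBS array 1.

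**Figure D2:**
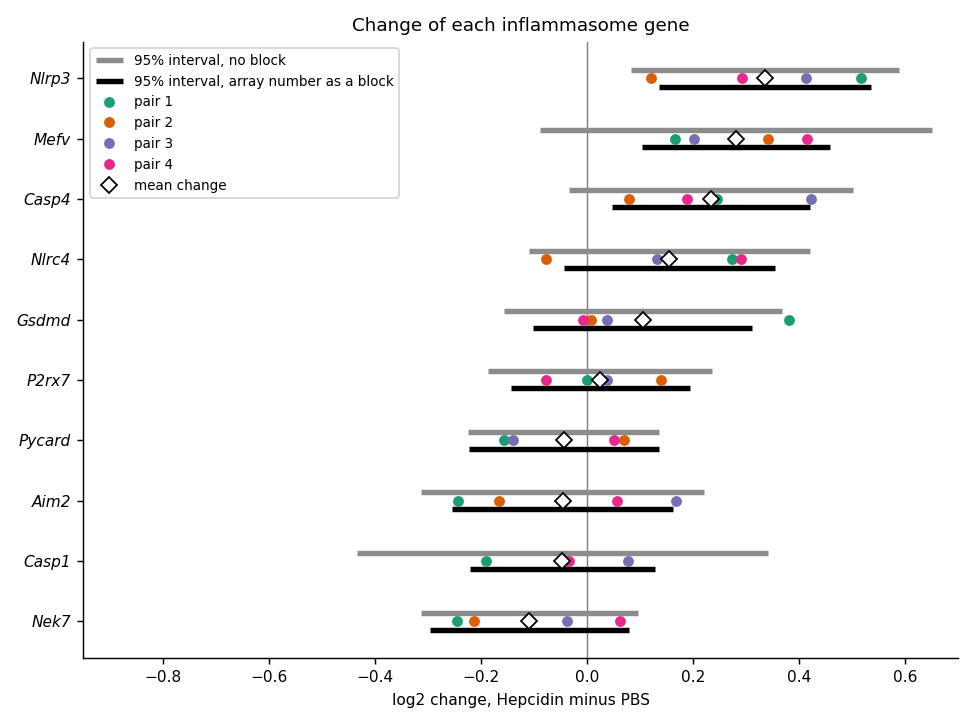
Log2 change, hepcidin minus PBS, of each inflammasome gene. Coloured points are the 4 pairs of arrays with the same number, diamonds their mean, grey bars limma's 95% interval without and black bars with the array number as a block. The grey bar of Nlrp3 lies above 0, and with the block those of Nlrp3, Mefv and Casp4 do, none of them past the threshold over all genes.

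The median log2 change of the 10 genes was 0.06, against 0.00 over all genes, and in pairs 1 to 4 the median was 0.08, 0.04, 0.10 and 0.06. Of the 10 genes, 6 lay above 0, against 50.4% of all genes. Without both arrays numbered 1 the median was 0.03 and 8 genes lay above 0.

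In all 10 genes the range of the 4 number means was wider than the size of the log2 change between treatments. The share of all genes for which this holds was not counted. The 5th to 95th percentile of the log2 change over all genes was -0.18 to 0.17. The median range over all genes, given below, lies outside that span. Whether 10 of 10 is more than the usual share cannot be told from these values. The range of the 4 number means, each the mean of a hepcidin and a PBS array, was 0.64 for Mefv, 0.62 for Casp1 and 0.35 for Nlrp3, the last against a log2 change of 0.34. It was smallest for Pycard, at 0.13. The median range over all genes was 0.25, and 8 of the 10 genes lay above it. The residual SD was smaller with the block in 9 of the 10, most of all in Casp1, at 0.08 with the block and 0.29 without it. Over all genes the median residual SD also fell, from 0.154 without the block to 0.119 with it. The share of all genes with a smaller residual SD was not counted.

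The genes did not move together between numbers. Nlrp3, Nlrc4, Mefv, Pycard, Gsdmd and P2rx7, 6 of the 10, were lowest on number 1, a share not counted over all genes. Relative to the mean of the other numbers, Mefv stood at -0.50 there and Nlrp3 at -0.24. Casp4, by contrast, was highest on number 1, at 0.23 above the others, and lowest on number 4 together with Aim2 and Nek7. Casp1 was lowest on number 3, at -0.54 relative to the others.

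**Figure D3:**
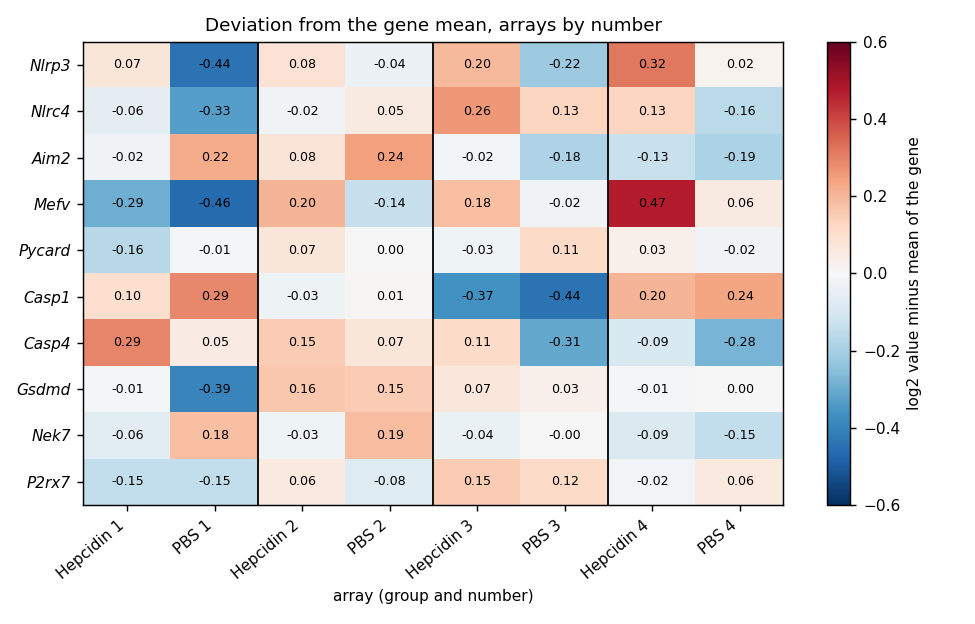
Log2 value minus the mean of the gene over 8 arrays, with the hepcidin and PBS arrays of a number side by side. Red is above and blue below the mean. The Mefv row is blue on number 1 and the Casp1 row blue on number 3 with both treatments, while the Nlrp3 row is lower in the PBS array of every number.

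Other gene lists moved with number 1 as well. The mean level of 20 interferon-stimulated genes was 7.14 on hepcidin 1, against 6.95 on PBS 1, and 7.80 to 8.26 on the other hepcidin arrays, against 7.96 to 8.37 on the other PBS arrays. The mean of 12 neutrophil and precursor markers was 4.34 on hepcidin 1, against 4.52 on PBS 1, and 5.22 to 5.71 on the other hepcidin arrays, against 5.29 to 5.74 on the other PBS arrays. The macrophage markers were at 11.0 on hepcidin 1, against 10.9 on PBS 1, and at 11.4 to 11.5 on the other hepcidin arrays, against 11.3 to 11.5 on the other PBS arrays. Not all of these markers fell. Fcgr1 was at 9.19 on hepcidin 1 and 8.84 on PBS 1, against a mean of 10.41 over the 8 arrays. Csf1r, Itgam, Mertk and Cd14 were also lower on both arrays numbered 1 than on every other array. Cd68 did not drop, at 13.14 and 13.13 against a mean of 13.13. Spi1 was at 11.80 on hepcidin 1 and 12.02 on PBS 1, against a mean of 11.91. Adgre1, with a mean of 11.43, was lower on PBS 1 (11.22) but not on hepcidin 1. The part of these lists in the differences between numbers was not tested. In bulk RNA, fewer cells of a type and less RNA per cell cannot be told apart.

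The rest of the pathway was counted in 3 further lists, none of whose members passed over all genes with or without the block. Of 18 genes in the list of other sensors, 11 lay above and 7 below 0, with a median log2 change of 0.015. The list also holds the adaptor gene Card9 and the pseudogene Nlrp1c-ps. Nod2, a receptor for bacterial muramyl dipeptide, was at 5.96 with hepcidin and 5.69 with PBS (log2 change 0.27 ± 0.10 SE), and its difference was 0.59 in pair 1 and 0.00 in pair 4. Nlrp10, an NLR without the repeats that other members use for sensing, was at 5.73 with hepcidin and 5.96 with PBS (-0.23 ± 0.08 SE), lower in 4 of 4 pairs, as 5.95% of all genes were. Both had unadjusted p-values under 0.05 in limma, at 0.0269 for Nod2 and 0.0227 for Nlrp10, and adjusted p-values of 1.00. Nod2 and Nlrp10 had mean levels of 5.83 and 5.84, under 6 like most of the lymphocyte markers. Naip5, the flagellin receptor that works with NLRC4, changed by 0.03 ± 0.07 (SE). It has close paralogues in Naip2 and Naip6, and whether the probes tell them apart was not tested.

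Of 13 other caspases, substrates and membrane rupture genes, 8 lay above and 5 below 0, with a median of 0.01 and 0 at an unadjusted p under 0.05 in limma with or without the block. The changes ran from -0.11 for Gsdma, a gasdermin gene, to 0.23 for Il1b. Il1b, the cytokine gene that is primed together with Nlrp3, was at 4.56 with hepcidin and 4.34 with PBS. Its log2 change was 0.23 ± 0.13 (SE), with differences of 0.30, 0.17, 0.53 and -0.10 in pairs 1 to 4, at levels near those of the lymphocyte markers. Il18, the other cytokine cut by caspase-1, changed by -0.01 ± 0.18 (SE). Ninj1, whose protein ruptures the plasma membrane after gasdermin pores have formed, changed by 0.09 ± 0.08 (SE).

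Of 29 regulators of assembly, 15 lay above and 14 below 0, with a median of 0.00. At an unadjusted p under 0.05 in limma there were 0 without the block and 2 with it, Gbp7 and Serpinb9, both lower with hepcidin. The shares over all genes were 2.86% without the block and 4.91% with it, so 2 of 29 is near the latter. Gbp7, of the guanylate-binding proteins that open pathogen vacuoles, was at 7.15 with hepcidin and 7.39 with PBS, a log2 change of -0.25, lower in 4 of 4 pairs. Its SE was 0.15 without and 0.09 with the block, and its unadjusted p in limma was 0.130 without and 0.0255 with it (adjusted p 1.00 and 0.967). Serpinb9, a serpin gene whose product inhibits granzyme B, was at 7.67 with hepcidin and 7.89 with PBS, also lower in 4 of 4 pairs. Its unadjusted p in limma was 0.332 without and 0.0301 with the block (adjusted p 1.00 and 0.970). Gbp5, at 4.52 with hepcidin and 4.34 with PBS, lay at levels near those of the lymphocyte markers. It changed by 0.19 ± 0.14 (SE), with 0.64 in pair 1 and -0.01 and -0.08 in pairs 3 and 4. Txnip, whose protein can bind NLRP3 under oxidative stress, changed by -0.06 ± 0.10 (SE).

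Targets and feedback genes of NF-kB, the pathway that primes Nlrp3, all had log2 changes above 0 in these arrays, against 50.4% of all genes. This list was chosen with earlier results of these data known, so its direction is a description and not separate evidence of priming. The log2 changes of the 21 measured genes ran from 0.09 for Nfkbib to 2.25 for Cxcl2, with a median of 0.42. None passed over all genes without the block, where 17 had an unadjusted p under 0.05 in limma, against 2.86% of all genes. With the block Cxcl2 passed, at an adjusted p of 0.0405 in limma. With the number as a random block, which estimates a correlation within numbers, Cxcl2 had an adjusted p = 0.516, while Tnf passed at 0.0169 and Nfkbia at 0.0364 in limma. With the fixed block and both arrays of a number left out, the adjusted p of Cxcl2 was 0.00329 without number 1, 0.213 without number 2, 0.0575 without number 3 and 0.745 without number 4. The inhibitor gene Nfkbia changed by 0.94 ± 0.13 and Tnf by 1.28 ± 0.14 (SE). Nlrp3, at 0.34, lay within the range of this list and below its median. The size of that gap was not tested. The 20 interferon-stimulated genes had a median of -0.06, with 7 above and 13 below 0. None passed over all genes with or without the block. The changes ran from -0.25 for Ifi203 to 0.45 for Cxcl10, and Ifit3 changed by -0.15 ± 0.08 (SE). At an unadjusted p under 0.05 in limma there were 0 without the block and 4 with it, Cxcl10 higher and Ifi203, Ifit2 and Mx1 lower. The shares over all genes were 2.86% without the block and 4.91% with it. Cxcl10, a chemokine gene, was at 7.87 with hepcidin and 7.42 with PBS and was higher in 4 of 4 pairs. Its SE was 0.55 without and 0.11 with the block, and its unadjusted p 0.440 without and 0.00506 with it in limma (adjusted p 1.00 and 0.784). Ifi203 had an SE of 0.15 without and 0.09 with the block, and an unadjusted p in limma of 0.136 without and 0.0301 with it (adjusted p 1.00 and 0.970).

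**Figure D4:**
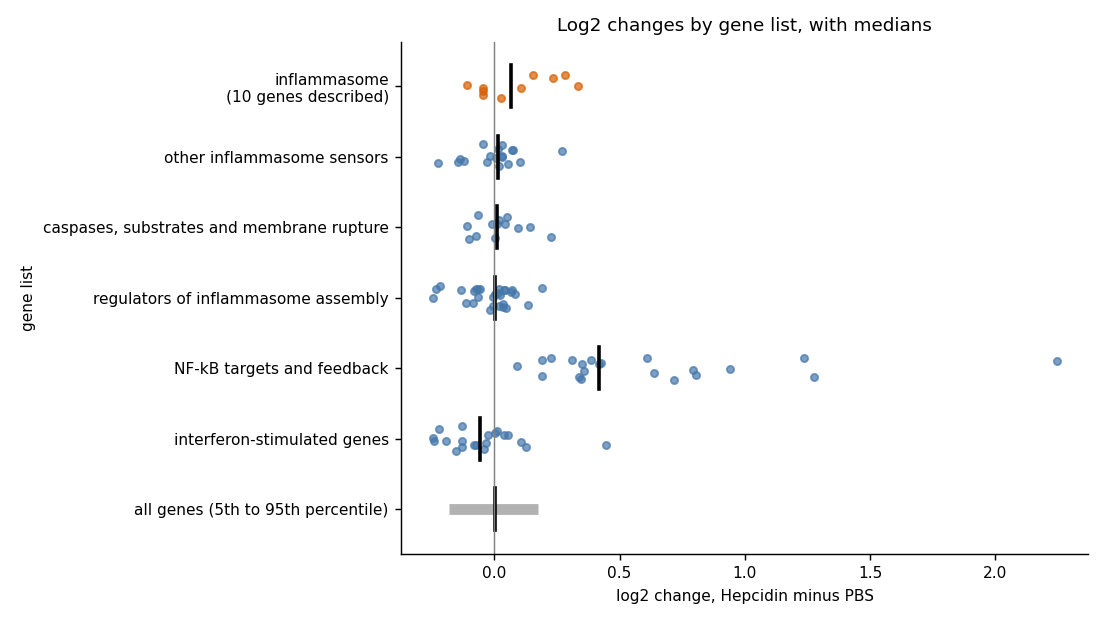
Log2 changes, hepcidin minus PBS, of the 10 inflammasome genes (orange) and of the other lists (blue), 1 point per gene, with the median as a black line. The grey bar spans the 5th to 95th percentile of all genes, -0.18 to 0.17. Nlrp3, Mefv and Casp4 lie to the right of this bar, and the NF-kB list is the list with its median outside it.

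As a description of pattern, the 9265 other genes whose mean level reached 6 were ranked by their Pearson correlation with Nlrp3 over the 8 arrays. The 5 highest were Etv3, an ETS-family transcription factor gene, at 0.946, the RNA helicase gene Dhx30 at 0.940, the RNA-binding protein gene Rbm47 at 0.936, the ribosomal protein gene Rps25 at 0.934 and the prostaglandin E2 receptor gene Ptger4 at 0.927. All 5 were higher with hepcidin in 4 of 4 pairs, as 5.69% of all genes were. Their log2 changes ran from 0.08 (Rbm47) to 0.42 (Rps25), and none passed over all genes. They were picked for likeness to Nlrp3, itself higher in 4 of 4 pairs, so their shared direction follows from the choice and is no separate evidence. The 8 arrays share their numbers as well as their treatment, so both enter these correlations.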

How the data were processed

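Biotin-labelled cDNA from total RNA was read on 8 whole-transcript arrays (Affymetrix), 4 per group, per the labels' protocols. The deposited log2 values were made by the authors with RMA (affy 1.36.1), per the submitters' processing notes, and ran from 1.73 to 13.6. They were used as deposited; the genome build and probe set definition behind them are not stated in the labels. With 4 arrays per group, precision is limited by their number. Of 24973 probe sets, 24015 had 1 gene symbol in the platform annotation, each with a number equal to its Entrez gene number, and 958 had none. The brighter probe set was kept for 4 symbols, which left 24011 genes, with no filter on low values. Promoters and neighbours are from RefSeq tables (GRCm38.p6).

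Hepcidin was compared with PBS over all genes with limma 3.58.1 in R 4.3.3 (lmFit, eBayes; Benjamini-Hochberg adjustment, threshold 0.05). Changes are hepcidin minus PBS, ± SE from this fit. The genes and lists were chosen with earlier results of these data known. Of 198 entries in 14 lists, 183 were measured. All 10 inflammasome genes are named, and of each other list those past the threshold with or without the block, otherwise the 2 with the smallest unadjusted p, plus Il1b, Il18, Naip5, Txnip, Tnf and Nfkbia; the ends of a list's range, and Serpinb9, Ifit2 and Mx1, are named besides, chosen after their values were seen. Deviations from the group mean, across genes, correlated at 0.344 to 0.548 between arrays of the same number, each above the bound of 0.1, and at -0.356 to 0.124 between different numbers. The number therefore pairs the arrays, and the fit with the number as a block is given beside results it moves past a threshold. The alternatives were the block as a fixed or random term, normalization, filters on dim genes, all probe sets, variance models, array weights, and leaving out 1 array or both of a number. The fits were tested on simulated data. Figures were drawn with matplotlib 3.10.9.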

Additional observations from a re-analysis of the deposited data

Results flagged for a closer look

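In 2 of the 30 sets of 4 values tested for the 10 genes (hepcidin arrays, PBS arrays and pair differences), 1 value stood apart from the other 3 by more than Dixon's 95% critical value. Chance flags about 1 set in 20. Pycard was at 8.37 on PBS array 3, against 8.23 to 8.26 on the other PBS arrays. The Gsdmd difference between hepcidin and PBS was 0.38 in pair 1, against -0.01 to 0.04 in the other pairs.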

How the results depend on the processing

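None of the 10 inflammasome genes passed the threshold in limma under any of the 26 alternatives, where the lowest adjusted p was 0.758 (Nlrp3, number as a random block). Nlrp3, Nlrc4, Mefv, Casp4 and Nek7 kept their direction in each alternative they were tested in, with Nlrp3 between 0.24 and 0.41. For Nlrp3, leaving arrays out could not reverse it, since its groups do not overlap. With the replicate block, 3 of the 10 had an unadjusted p under 0.05 (3 with the random block), and 1 NF-kB gene, Cxcl2, passed. With the random block 4 passed, Cxcl2 not among them, and without a block 3 passed among genes of mean level at least 6. The replicate block changed no other call. The median change of the 10 genes was 0.025 with either filter on dim genes, which remove Mefv, and with all 10 it ran from 0.026 (without replicate 1) to 0.10 when arrays were left out. In these fits 0 to 2 of the 10 had an unadjusted p under 0.05 and 0 to 2 NF-kB genes passed, and the interferon list median ran from -0.32 without PBS array 1 to 0.16 without hepcidin array 1. Changes that crossed 0 when arrays were left out ran from -0.12 to 0.027 for Aim2, -0.082 to 0.0033 for Pycard, -0.20 to 0.067 for Casp1, -0.0096 to 0.17 for Gsdmd, -0.022 to 0.078 for P2rx7, -0.20 to 0.11 for Il18 and -0.13 to 0.0036 for Txnip. Il18 was at 0.00645 after median centring. With the replicate block and both arrays of a number left out, Aim2 was at 0.019, Casp1 at 0.000960 and the median of the 10 at 0.026 without number 1, P2rx7 at -0.013 and Il18 at 0.11 without number 2, and Il18 at 0.0085 without number 4. In those fits 3, 4, 2 and 3 of the 10 had an unadjusted p under 0.05 without numbers 1 to 4, and 1 NF-kB gene passed without number 1 and 1 without number 2. The causes were not tested. Mefv, near the level of the background markers, is limited by its signal, and how much of that signal is Mefv mRNA was not tested.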
